A study of Homo sapiens with 6 samples.

Results

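The genes described here encode the constitutive proteasome of human cells: the subunits of the 20S core, the subunits of the 19S regulatory particle, and the activators, inhibitor and assembly chaperones that carry PSM symbols. They were chosen by symbol (PSMA, PSMB, PSMC, PSMD, PSME, PSMF or PSMG with a number, without the immunoproteasome subunits PSMB8, PSMB9 and PSMB10) and not by any measured value. The annotation held 45 such genes, and 44 of them were tested among 17841 genes in all. The remaining gene, PSMA8, a testis form of an alpha subunit, had only 1 of its 12 probe sets above the level filter and was not tested.

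RNA came from HCT116, an established human colorectal carcinoma line, which the titles write as HCT116 +/+. It was hybridised to 6 Affymetrix Human Exon 1.0 ST arrays, which measure each gene with several short probe sets along its exons. There were 2 control arrays, 2 arrays of cells given Nutlin-3 and 2 arrays of cells given 5FU (5-fluorouracil), all collected at 12 h. The control treatment is named as DMSO in the series' design text and as none in the sample labels, the drug is Nutlin-3 in the former and Nutlin 3R in the latter, and the dose of either drug is unknown here. All groups are the same line with no other engineered difference in the labels, and no label tells whether replicates came from separate cultures, so p-values reflect the spread between arrays alone, which may be technical. With 2 arrays against 2, an exact permutation test of a single gene cannot give a two-sided p below 0.333, so the tests lean on variance that limma pools over genes.

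The proteasome is the barrel-shaped protease that degrades proteins tagged with ubiquitin. In the 20S core, rings of alpha subunits gate the entrance and rings of beta subunits carry the proteolytic sites. The 19S particle caps the core: its base holds the ring of ATPases that unfold the substrate, and its lid removes the ubiquitin chain. Transcription of these genes is known to be raised together when proteasome activity falls, through the factor NFE2L1 (NRF1), which binds antioxidant-response-like elements in their promoters. The pathway matters for these drugs because MDM2 is the ubiquitin ligase that sends p53 to the proteasome. Nutlin-3 blocks the binding of MDM2 to p53, while 5FU, a pyrimidine analogue, inhibits thymidylate synthase through its metabolites and is built into RNA and DNA.

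The drug labels were checked on a pair of p53 target genes, and the line on its markers. CDKN1A, which encodes the cell-cycle inhibitor p21, rose by a log2 difference of 2.10 after Nutlin-3 (limma, Benjamini-Hochberg adjusted p = 0.00308) and by 1.78 after 5FU (adjusted p = 0.00751). MDM2 rose by 1.86 (adjusted p = 0.0099) and 1.57 (adjusted p = 0.0283). Of the epithelial markers, KRT8, KRT18, KRT19 and EPCAM had levels of 9.04 to 11.31 and CDH1 of 7.61 to 8.07, while VIL1, the brush-border protein villin, had 5.71 to 5.85. The blood, fibroblast and endothelial markers that passed the level filter had levels between 5.43 and 7.60, a range that includes VIL1. In limma 0 of those 12 genes were called for Nutlin-3 against control, 5FU against control or Nutlin-3 against 5FU. Of all genes, 1.22%, 0.448% and 0.633% were called in that order. Unadjusted p was below 0.05 for 1, 1 and 1 of the 12, beside 10.2%, 10.7% and 13.3% of all genes. Correlations between arrays across genes ran from 0.92 to 0.981.

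No proteasome gene passed the threshold in any of the 3 comparisons when arrays of a group were treated as unpaired. A crossed pairing swapped the replicate numbers of the control arrays, so same-numbered Nutlin-3 and 5FU arrays stayed paired as labelled. The swap was chosen after seeing the data and is not given by the labels. This crossed pairing called 5 after Nutlin-3, 0 after 5FU and 14 between the drugs, all lower after Nutlin-3. It called 1788, 1882 and 2821 of all 17841 genes in the same order. In the unpaired fit, 0 of the 44 genes were called after Nutlin-3 at an adjusted p below 0.05 in limma, against 217 of all 17841 genes (1.22%). After 5FU it was again 0 of 44, against 80 genes (0.448%), and between Nutlin-3 and 5FU 0 of 44, against 113 genes (0.633%). At an unadjusted p below 0.05, 2 proteasome genes passed for Nutlin-3 against control (10.2% of all genes did), 0 for 5FU against control (10.7%) and 9 for Nutlin-3 against 5FU (13.3%). The lowest adjusted p of any proteasome gene was 0.0914, 0.516 and 0.0882 in these comparisons. Leaving out 1 array lowered the count over all genes, for Nutlin-3 against control to 5 and 115 without control replicate 1 or 2 and to 31 and 131 without Nutlin-3 replicate 1 or 2. For 5FU against control it was 3 and 4 without the control arrays and 1 and 1 without the 5FU arrays, and for the drugs 9 and 51 without the Nutlin-3 arrays and 18 and 3 without the 5FU arrays, in that order, while 0 proteasome genes were called each time. The arrays measured RNA of whole cultures, so fewer cells with a transcript and less of it per cell cannot be told apart. The comparison of the drugs shares its arrays with the other comparisons and is no independent measurement.

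These were small differences with bounded intervals. A log2 difference of 1 is a 2-fold change, and the 95% interval of the difference lay within 2-fold either way for 40 of the 44 genes after Nutlin-3, for 43 after 5FU and for 39 between the drugs. It did so for 16347, 16403 and 15970 of all 17841 genes tested, so such intervals were common among all genes. Single differences ran from -0.63 to 0.13 after Nutlin-3, from -0.28 to 0.34 after 5FU, and from -0.68 to 0.08 for Nutlin-3 minus 5FU.

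Most members nevertheless lay on the same side of control within each drug. After Nutlin-3 the median log2 difference of the 44 genes was -0.19, with 38 below 0, beside a median of 0.00 over all genes tested. Their median after 5FU was 0.09, with 30 above 0, and for Nutlin-3 minus 5FU it was -0.28, with 39 below 0. Proteasome transcripts are well expressed, and well expressed genes as a class had the same signs: the 3837 genes with a mean level above 8 had medians of -0.10, 0.04 and -0.15, beside -0.20, 0.12 and -0.32 for the 36 proteasome genes above that level. The medians moved with single arrays. The Nutlin-3 median ran from -0.09 without Nutlin-3 replicate 1 to -0.32 without Nutlin-3 replicate 2, and was -0.30 without control replicate 2. For 5FU it was -0.02 without control replicate 2, 0.15 without control replicate 1, 0.19 without 5FU replicate 1 and 0.03 without 5FU replicate 2. For Nutlin-3 minus 5FU it was -0.18 without Nutlin-3 replicate 1 and likewise -0.18 without 5FU replicate 2.

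**Figure D1:**
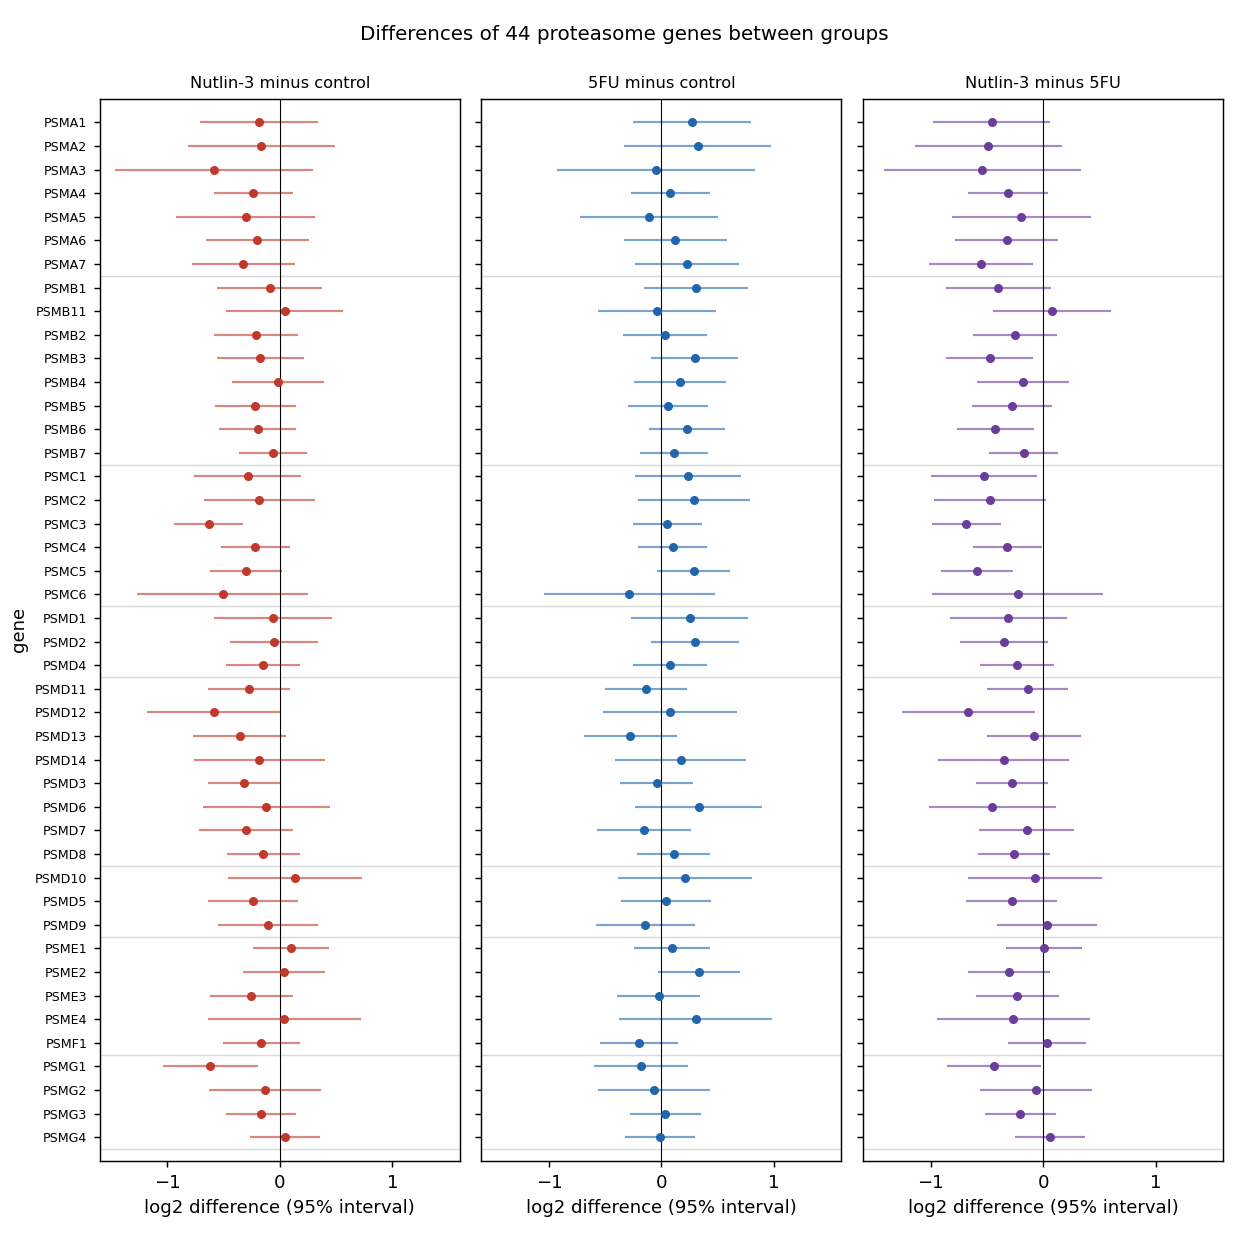
The points give the log2 difference of each of the 44 tested genes and the lines its 95% interval from limma, in 3 panels (Nutlin-3 minus control, 5FU minus control, Nutlin-3 minus 5FU), with pale lines between subunit classes. Points lie left of 0 for 38 genes in the first panel, right of 0 for 30 in the second and left of 0 for 39 in the third, and most intervals cross 0.

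Counting arrays rather than p-values gave the same direction for Nutlin-3, while the count above control after 5FU was near the share of all genes. After Nutlin-3, both treated arrays lay below both controls for 19 of the 44 proteasome genes (18.0% of all genes) and above both for 0 (16.2%). After 5FU, both treated arrays were above both controls for 10 (20% of all genes) and below both for 3 (18.0%). Between the drugs, both Nutlin-3 arrays were below both 5FU arrays for 27 of 44 (25.2% of all genes) and above both for 0 (20.8%). Among the 3837 genes with a mean level above 8, 1131 lay below both controls after Nutlin-3 and 418 above. After 5FU 909 of them lay above and 711 below, and between the drugs 1535 lay below and 478 above. Of the 36 proteasome genes above that level, 17 lay below and 0 above after Nutlin-3, and 26 and 0 between the drugs. After 5FU, 9 of these 36 lay above and 2 below.

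The 730 single probe sets behind the tested proteasome genes were distributed alike. None was called in limma at an adjusted p below 0.05 in any comparison, beside 0.00%, 0.00% and 0.00142% of the 705699 probe sets fitted. At an unadjusted p below 0.05 there were 32 (4.38%), 31 (4.25%) and 58 (7.95%), beside 6.14%, 6.27% and 7.39% of all fitted. For Nutlin-3 against control, 215 of the 730 (29.5%) had both treated arrays below both controls and 40 (5.48%) had both above, beside 18.4% and 16.8% of all named probe sets. For 5FU against control, 84 (11.5%) were below and 168 (23.0%) above, beside 19.3% in each direction. For Nutlin-3 against 5FU, 328 (44.9%) were below and 55 (7.53%) above, beside 22.5% and 20.3%. Probe sets of a gene measure the same RNA and are not independent of each other. The RefSeq gene table lists 52 pseudogenes of 21 of the 45 genes, 13 of them of PSMC1 and 6 of PSME2, and near-identical copies could share signal with those genes.

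PSMC3, an ATPase of the 19S base, had the largest difference from control and the lowest p of the 44 genes. Its levels were 9.79 and 9.86 in the controls, 9.17 and 9.22 after Nutlin-3, and 9.81 and 9.94 after 5FU. Both Nutlin-3 arrays lay below the other 4 arrays, and the control and 5FU arrays overlapped. The difference for Nutlin-3 against control was -0.63, or 1.55-fold lower (95% interval of the log2 difference -0.94 to -0.32), with an adjusted p of 0.0914 in limma that did not pass the threshold. All 22 of its probe sets had a lower mean after Nutlin-3, by between 0.34 and 1.12 on the log2 scale, and in 21 of the 22 both Nutlin-3 arrays were below both controls. The identifiers of these probe sets fall in separate blocks, and RefSeq lists 1 pseudogene of PSMC3. Whether all 22 lie on PSMC3 itself was not tested. Against 5FU the difference was -0.68 (interval -0.99 to -0.38, adjusted p = 0.0882), with the groups apart in 22 of 22 probe sets. Both differences passed under the crossed pairing. That pairing was chosen after seeing the data and called 1788 and 2821 of all 17841 genes in these comparisons, so it adds no independent support. Over the other settings, fits with 1 array left out among them, PSMC3's difference ran from -0.69 to -0.59 against control and from -0.75 to -0.62 against 5FU. Its lowest adjusted p in limma was 0.0542 against control and 0.0527 against 5FU, in settings that left out no single array. With the replicate number as a block, no proteasome gene had an adjusted p below 0.242 and 0.267 in these comparisons.

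**Figure D2:**
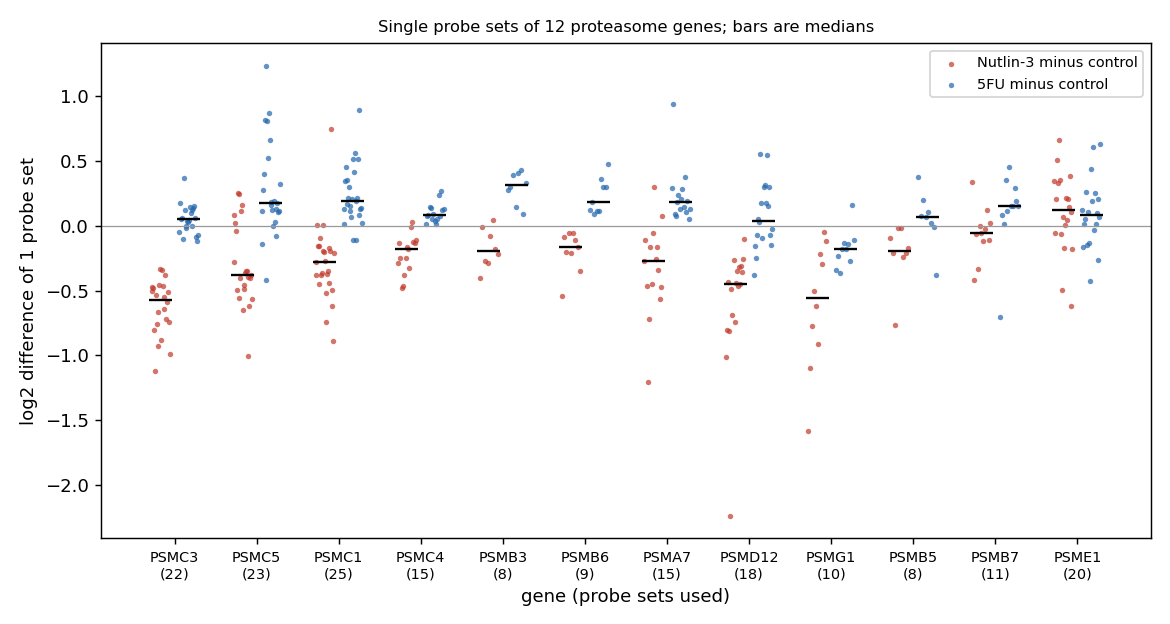
Each point is the log2 difference of 1 probe set from control, after Nutlin-3 in red and after 5FU in blue, for 12 genes, with the number of probe sets used under each name and a bar at the median. All 22 PSMC3 points after Nutlin-3 lie below 0, while its 5FU points lie around 0, and the points of PSME1 lie on both sides in both treatments.

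Promoters of 4 genes with an unadjusted p below 0.05 between the drugs are shown, because most members had the same sign and NFE2L1 is known to act on proteasome promoters. RefSeq windows of the 250 bases before the start were at hand for 39 of the 45 genes (GRCh38.p14). They were searched on both strands for TGACNNNGC, the core of the antioxidant response element, and for CCAAT, the box bound by NF-Y. The capitals below mark these motifs, on either strand, in windows printed 5′ to 3′ along the gene's own strand.
PSMC3, chr11:47426440-47426689, minus strand: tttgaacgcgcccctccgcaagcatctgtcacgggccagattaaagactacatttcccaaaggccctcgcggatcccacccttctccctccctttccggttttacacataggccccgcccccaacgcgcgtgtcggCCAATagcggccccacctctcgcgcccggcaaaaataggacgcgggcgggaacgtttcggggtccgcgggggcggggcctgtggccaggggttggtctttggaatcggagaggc
PSMC5, chr17:63827181-63827430, plus strand, the start farther upstream: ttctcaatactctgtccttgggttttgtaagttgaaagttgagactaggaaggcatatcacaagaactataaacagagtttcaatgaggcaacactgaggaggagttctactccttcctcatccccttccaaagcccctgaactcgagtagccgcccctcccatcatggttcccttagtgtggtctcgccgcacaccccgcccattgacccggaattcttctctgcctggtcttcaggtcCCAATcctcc
PSMB3, chr17:38752491-38752740, plus strand: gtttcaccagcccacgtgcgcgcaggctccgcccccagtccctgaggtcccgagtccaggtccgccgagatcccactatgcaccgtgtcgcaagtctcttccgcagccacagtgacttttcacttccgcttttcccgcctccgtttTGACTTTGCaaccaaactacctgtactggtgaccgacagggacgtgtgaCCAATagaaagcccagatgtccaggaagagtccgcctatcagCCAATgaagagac
PSMD12, chr17:67366578-67366827, minus strand: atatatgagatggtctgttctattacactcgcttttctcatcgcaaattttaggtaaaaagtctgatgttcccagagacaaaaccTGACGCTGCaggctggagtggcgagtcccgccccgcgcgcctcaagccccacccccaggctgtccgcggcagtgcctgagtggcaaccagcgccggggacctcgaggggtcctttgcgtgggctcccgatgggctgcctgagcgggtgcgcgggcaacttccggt

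The PSMB3 window held both motifs, PSMD12 held only the antioxidant response core, and PSMC3 and this PSMC5 window held only CCAAT. PSMC5's other start, whose window is not printed, held TGACNNNGC. The windows of PSMC1 and PSMC4 held neither of these letter strings. The PSMG1 window, which is not printed, held both, and PSMB6 and PSMA7 are named only. Over the matched genes, TGACNNNGC was in 12 of 39 (30.8%), beside 13.2% of all 27305 genes with such a window. CCAAT was in 18 of 39 (46.2%), beside 37.0% of all genes. A match describes the letters of a window and says nothing of binding.

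The alpha ring, which gates the core, had 0 called genes among 7 tested and differences below 0 in all 7 after Nutlin-3 (median -0.24). After 5FU the median was 0.12, with 5 of 7 above 0. PSMA7 had levels of 9.13 and 9.03 in control, 8.53 and 8.97 after Nutlin-3, and 9.14 and 9.48 after 5FU. Its Nutlin-3 arrays lay below both controls and its 5FU arrays above them by a narrow margin, and the Nutlin-3 minus 5FU difference was -0.55 (unadjusted p = 0.0251, adjusted p = 0.295). PSMA3 had 9.58 and 8.94 in control, 8.27 and 9.08 after Nutlin-3, and 8.80 and 9.62 after 5FU. Its mean was 0.59 lower after Nutlin-3, but its replicates differed by more than that within every group (interval of the difference -1.47 to 0.29). PSMA2 had 8.47 and 7.74 in control, 7.70 and 8.18 after Nutlin-3, and 8.27 and 8.58 after 5FU, so the controls spanned most of the range of the other groups. The other members, PSMA1, PSMA4, PSMA5 and PSMA6, had Nutlin-3 differences between -0.30 and -0.19, and only PSMA4 among them had groups that did not overlap.

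Among the beta subunits, 0 of 8 were called, and the proteolytic subunits differed from control by at most 0.23 on the log2 scale. PSMB6, which carries the caspase-like site, had levels of 10.59 and 10.74 in control, 10.38 and 10.56 after Nutlin-3, and 10.81 and 10.97 after 5FU. All 9 of its probe sets had lower means after Nutlin-3 and higher means after 5FU, and the difference between the drugs was -0.43 (unadjusted p = 0.0214, adjusted p = 0.277). PSMB7, which carries the trypsin-like site, had 10.68 and 10.67 in control, 10.56 and 10.67 after Nutlin-3, and 10.74 and 10.84 after 5FU. Its difference was -0.06 after Nutlin-3 (interval -0.37 to 0.24), 0.11 after 5FU and -0.17 between the drugs. PSMB5, which carries the chymotrypsin-like site that bortezomib binds, had 8.93 and 8.96 in control, 8.63 and 8.81 after Nutlin-3, and 8.86 and 9.13 after 5FU. The Nutlin-3 arrays were lower than both controls by a mean of 0.22 (interval -0.57 to 0.14, adjusted p = 0.771), while the 5FU arrays lay on either side of them.

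The other beta subunits were similar. PSMB1 had 9.67 and 9.18 in control, 9.22 and 9.45 after Nutlin-3, and 9.65 and 9.81 after 5FU, with a difference of 0.31 after 5FU (interval -0.16 to 0.77). PSMB3 had 11.15 and 11.30 in control, 10.89 and 11.21 after Nutlin-3, and 11.43 and 11.62 after 5FU, so both 5FU arrays were above the other 4 (Nutlin-3 minus 5FU -0.47, unadjusted p = 0.0236, adjusted p = 0.288). PSMB2 and PSMB4 had differences of -0.22 and -0.02 after Nutlin-3. PSMB11, the thymus-specific subunit, rested on only 2 of its 6 probe sets and was the lowest tested member on every array. Its levels were 5.72 and 6.20 in control, 6.17 and 5.84 after Nutlin-3, and 6.10 and 5.74 after 5FU. Its replicates differed by more than any of its group differences. The Nutlin-3 median of the beta ring was -0.13, with 7 of 8 below 0, and the 5FU median was 0.14, with 7 of 8 above 0.

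The 6 ATPases of the 19S base unfold substrates and open the gate of the core. None was called, but 4 of the 9 genes with an unadjusted p below 0.05 between the drugs were ATPases (PSMC1, PSMC3, PSMC4 and PSMC5). Their median was -0.29 after Nutlin-3, 0.17 after 5FU and -0.50 for Nutlin-3 minus 5FU, with all 6 below 0 in the first and the last. PSMC5 had levels of 8.71 and 8.73 in control, 8.35 and 8.50 after Nutlin-3, and 8.93 and 9.09 after 5FU. The groups of arrays were wholly apart, with differences of -0.30 after Nutlin-3 (interval -0.62 to 0.02) and 0.29 after 5FU (interval -0.04 to 0.61). Between the drugs it was -0.59 (interval -0.91 to -0.26, adjusted p = 0.14), and all 23 of its probe sets had the lower mean after Nutlin-3. PSMC4 showed the same order at a smaller size, with 10.00 and 9.99 in control, 9.78 and 9.78 after Nutlin-3, and 10.02 and 10.18 after 5FU. PSMC6 had another order, with 8.33 and 7.85 in control, 7.18 and 7.99 after Nutlin-3, and 7.51 and 8.11 after 5FU. Both drugs had lower means than control there (-0.51 and -0.28), and in both the replicate 1 array was far below replicate 2. PSMC1 and PSMC2 had differences of -0.29 and -0.18 after Nutlin-3 and 0.24 and 0.29 after 5FU, and for each the control replicates lay farther apart than those differences.

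The non-ATPase subunits of the base include the ubiquitin receptor PSMD4 and the scaffolds PSMD1 and PSMD2. None of the 3 was called. PSMD4 was measured by 6 probe sets of its own, with levels of 7.88 and 7.96 in control, 7.83 and 7.70 after Nutlin-3, and 8.09 and 7.90 after 5FU. Its difference of -0.15 after Nutlin-3 had an interval of -0.48 to 0.18. PSMD1 and PSMD2 lay near control after Nutlin-3 (-0.06 and -0.05) and above it after 5FU (0.25 and 0.30), and the 5FU arrays of PSMD2 were above both controls (adjusted p = 0.631).

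All 8 lid subunits had lower means after Nutlin-3, and 6 of them had both treated arrays below both controls, as 18.0% of all genes did. The median was -0.29, against 0.02 after 5FU, where 4 lay above and 4 below 0. PSMD12, a scaffold subunit of the lid, had 9.75 and 9.30 in control, 8.68 and 9.20 after Nutlin-3, and 9.38 and 9.82 after 5FU. Its difference was -0.59 after Nutlin-3 (unadjusted p = 0.0523, adjusted p = 0.498), with all 18 probe sets lower and 9 of them with groups apart. PSMD13 was lower after both drugs, with 7.78 and 7.75 in control, 7.23 and 7.58 after Nutlin-3, and 7.33 and 7.64 after 5FU. PSMD7 had the same order, with 10.23 and 10.26 in control, 9.73 and 10.17 after Nutlin-3, and 10.00 and 10.19 after 5FU. For both of these genes neither difference passed the adjusted threshold (PSMD13 -0.36 and -0.28, PSMD7 -0.30 and -0.15).

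PSMD14, the deubiquitinase of the lid, had 9.62 and 8.90 in control, 8.95 and 9.21 after Nutlin-3, and 9.31 and 9.55 after 5FU. Its control arrays differed by more than either drug's difference from control (-0.18 and 0.17). PSMD6 had 8.65 and 8.08 in control, 8.02 and 8.48 after Nutlin-3, and 8.59 and 8.82 after 5FU. It gave a 5FU difference of 0.33 (interval -0.23 to 0.90), and its control replicates lay farther apart than that. PSMD3 and PSMD11 had Nutlin-3 differences of -0.32 and -0.28, and PSMD8 of -0.15, each with both treated arrays below both controls.

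The chaperones that assemble the base were close to control. PSMD10 (gankyrin), which also binds MDM2, had 9.05 and 8.50 in control, 8.70 and 9.12 after Nutlin-3, and 8.76 and 9.20 after 5FU. Its differences of 0.13 and 0.21 were smaller than the gap between its controls. PSMD9 had 7.84 and 7.37 in control, 7.46 and 7.54 after Nutlin-3, and 7.34 and 7.58 after 5FU, and PSMD5 had differences of -0.24 and 0.04.

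The chaperones that assemble the core included the other member with an unadjusted p below 0.05 after Nutlin-3. PSMG1, which pairs with PSMG2 to build the alpha ring, had 9.35 and 9.24 in control, 8.52 and 8.83 after Nutlin-3, and 8.94 and 9.29 after 5FU. Both Nutlin-3 arrays were below both controls and below both 5FU arrays. The difference was -0.62 against control (interval -1.04 to -0.20, unadjusted p = 0.0102, adjusted p = 0.244), and all 10 probe sets had lower means, 6 of them with groups apart. PSMG2 had a difference of -0.13 after Nutlin-3, with overlapping arrays. PSMG3 and PSMG4, which form the other chaperone pair, had differences of -0.17 and 0.05, with overlapping arrays for PSMG4. PSMG4 had 6.93 and 6.81 in control, 6.94 and 6.89 after Nutlin-3, and 6.91 and 6.80 after 5FU.

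The activators and the inhibitor had mixed signs after Nutlin-3: 3 of 5 had means above control, the median was 0.03, and 0 of 5 were called. PSME1 and PSME2 form the interferon-inducible 11S cap. PSME2 had 9.01 and 8.87 in control, 8.83 and 9.12 after Nutlin-3, and 9.20 and 9.35 after 5FU. Its 5FU difference of 0.34 was the highest of the 44 genes (interval -0.03 to 0.70, adjusted p = 0.516). PSME1 stayed between 7.65 and 7.90 on all 6 arrays, with 7.72 and 7.65 in control, 7.67 and 7.90 after Nutlin-3, and 7.73 and 7.83 after 5FU. PSME3 forms the nuclear cap that is known to help MDM2 act on p53, and had 9.38 and 9.40 in control, 9.01 and 9.27 after Nutlin-3, and 9.24 and 9.49 after 5FU. Both Nutlin-3 arrays were below both controls, by a mean of 0.25 (interval -0.62 to 0.11, adjusted p = 0.713).

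PSME4, the large single-chain activator PA200, had 8.40 and 7.61 in control, 7.78 and 8.30 after Nutlin-3, and 8.20 and 8.41 after 5FU. Its controls lay farther apart than any of its groups did from each other. PSMF1, the inhibitor PI31, had 8.76 and 8.72 in control, 8.47 and 8.69 after Nutlin-3, and 8.45 and 8.64 after 5FU. It was lower than both controls on all 4 treated arrays, by means of 0.16 and 0.20.

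**Figure D3:**
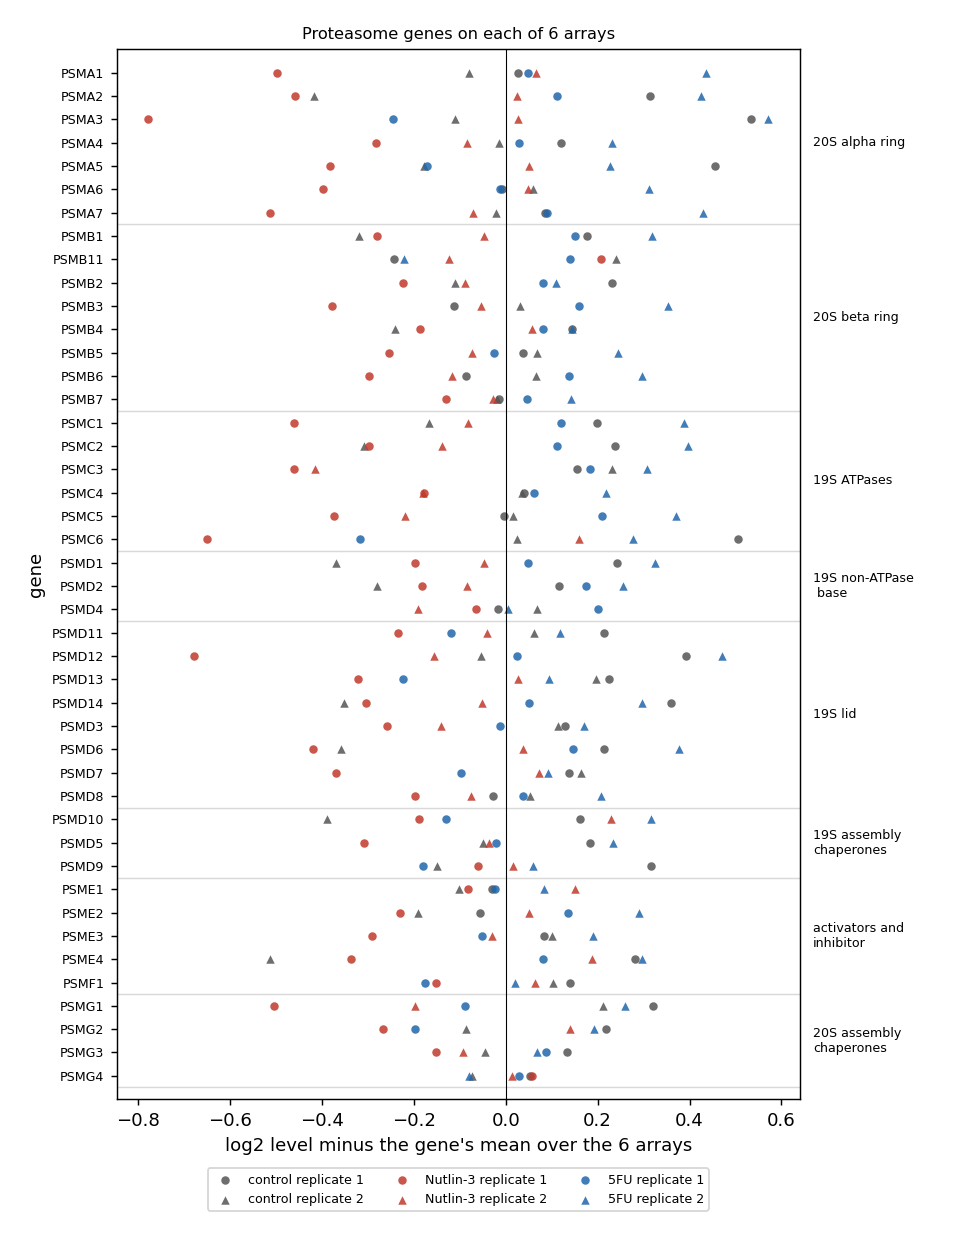
Each row is a gene and each point the log2 level of 1 array minus the gene's mean over the 6 arrays, with colour for the group (control grey, Nutlin-3 red, 5FU blue) and circles or triangles for replicate 1 or 2. Red circles are the lowest point in 29 rows and blue triangles the highest in 28, and the control replicates lie wide apart in many rows.

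A pattern of arrays ran through the members beside the treatments. Nutlin-3 replicate 1 was the lowest array for 29 of the 44 genes (26.3% of all genes) and 5FU replicate 2 the highest for 28 (23.6% of all genes). Control replicate 1 was the highest for 11 genes and control replicate 2 the lowest for 9. The median deviation of the members from their own means was 0.14 and -0.05 on the control arrays, -0.29 and -0.04 on the Nutlin-3 arrays, and 0.05 and 0.25 on the 5FU arrays. Control replicate 2 and Nutlin-3 replicate 2 lay at nearly the same median.

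Within a group, the replicates differed about as much as the drugs did. The median of replicate 2 minus replicate 1 was -0.13 in control, where replicate 1 was higher for 33 of 44 genes. It was 0.24 after Nutlin-3 and 0.22 after 5FU, and in both replicate 2 was higher for 40 of 44. The 3837 genes with a mean level above 8 had -0.17, 0.22 and 0.18 for the same differences, while the medians over all genes were -0.02, 0.07 and 0.06. The part of this array pattern in the drug differences was not tested. The median residual SD of a member was 0.19, beside 0.161 for all genes.

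**Figure D4:**
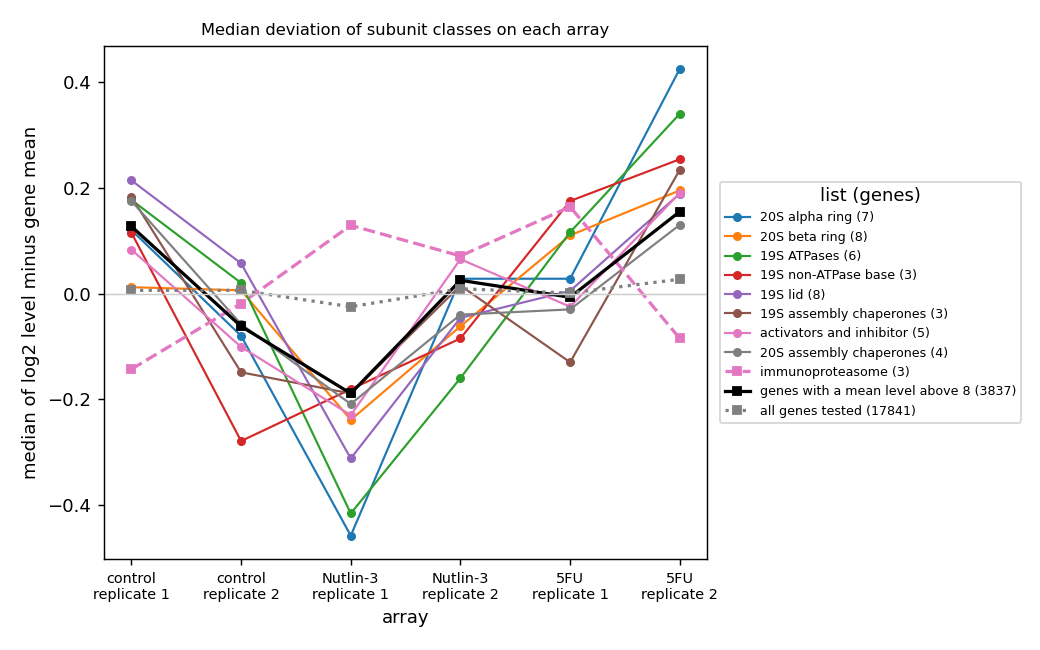
The vertical axis gives the median, over the genes of a list, of the log2 level minus the gene's own mean, for each of the 6 arrays on the horizontal axis, and lines only connect the points of a list. Nutlin-3 replicate 1 is below 0 for every proteasome class shown other than the immunoproteasome, and the black line of genes with a mean level above 8 goes from -0.19 there to 0.16 on 5FU replicate 2.

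Other genes of the pathway were taken as lists of their known members. None of the immunoproteasome subunits (3 tested), other proteasome factors (13), regulators of proteasome genes (11), ubiquitin and E1 genes (3) or shuttle factors with VCP (10) was called in any comparison by limma. Of all genes, 1.22%, 0.448% and 0.633% were called in the 3 comparisons. At an unadjusted p below 0.05 there were 1, 2 and 9 of these 40 listed genes, beside 10.2%, 10.7% and 13.3% of all genes. PSMB9, the inducible subunit that replaces PSMB6, had levels of 6.59 and 6.74 in control, 6.59 and 6.76 after Nutlin-3, and 6.90 and 6.82 after 5FU. The other proteasome factors had a Nutlin-3 median of -0.22, with 12 of 13 below 0, and a 5FU median of 0.07. POMP, the maturation protein of the core, had 10.86 and 10.85 in control, 10.36 and 10.73 after Nutlin-3, and 10.84 and 11.18 after 5FU. Its Nutlin-3 arrays were below all others, with a difference of -0.32 from control (adjusted p = 0.69).

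NFE2L1 itself had 9.16 and 9.12 in control, 8.86 and 9.08 after Nutlin-3, and 9.19 and 9.31 after 5FU. Both Nutlin-3 arrays were below both controls and both 5FU arrays above them, with differences of -0.17 (adjusted p = 0.813) and 0.11 (adjusted p = 0.915). The regulators as a list had medians of 0.01 after Nutlin-3 and 0.06 after 5FU. The list of shuttle factors with VCP, which also holds UFD1, NPLOC4, NSFL1C, FAF1 and FAF2, had all 10 genes below control after Nutlin-3 (median -0.22). After 5FU, 5 of 10 were below it.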

How the data were processed

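Expression was measured on 6 Affymetrix Human Exon 1.0 ST arrays. The authors deposited log2 values per probe set, and RMA, a method that removes background, equalises arrays and combines probes, is named in the submitters' processing notes. Settings, batches and detection calls were not at hand, and the number of arrays limits the precision. Groups and replicate numbers came from the labels.

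The platform annotation named the probe sets, with old symbols updated through RefSeq's gene table (GRCh38.p14). Of 19560 symbols, 16472 were current, 2966 were updated and 122 were kept. A probe set with more than 1 symbol was left out, which applied to 29 that include a proteasome symbol. A gene's level was the average of those of its probe sets that were brighter, over all arrays, than the median probe set (4.73), and at least 2 were needed. Levels were fitted for all 3 groups in limma 3.58.1 (R 4.3.3; lmFit, eBayes, without a block, leaving 3 residual degrees of freedom), with Benjamini-Hochberg adjustment over 17841 genes and calls below 0.05. Single probe sets were fitted alike. The test was tried on simulated data.

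The members and lists were chosen with earlier results of these data known. All 44 tested members are accounted for by class. Values on every array were given by a fixed rule: members called in any comparison, the 5 highest and 5 lowest differences of each comparison, and PSMB5, PSMB6, PSMB7, PSMD4, PSMD14, PSMD10, PSME3 and PSMG1 whatever their values, with NFE2L1, POMP and PSMB9 from the other lists. PSMC4 and PSMB3 were added after their values were seen. Alternatives were other probe-set filters and summaries, array centring, trend and robust variances, a fit of only the 2 groups compared, a replicate block, leaving out each array and, added after seeing the data, a crossed pairing. Promoter windows came from RefSeq and were searched for motif letters only.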

Additional observations from a re-analysis of the deposited data

Results flagged for a closer look

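In 5 of the 44 tested proteasome genes (11.4%) both Nutlin-3 arrays lay below both controls and both 5FU arrays above both controls, an order held by 2.31% of all 17841 genes. All 5 had a mean level above 8, and the share of this order among genes above that level was not counted. Of those 3837 genes, 1131 lay below both controls after Nutlin-3 and 418 above. After 5FU, 909 of them lay above both controls and 711 below. The differences for Nutlin-3 minus 5FU were -0.55 for PSMA7, -0.43 for PSMB6, -0.17 for PSMB7, -0.32 for PSMC4 and -0.59 for PSMC5 on the log2 scale. The difference between the drugs was tested in the same limma model, and its adjusted p was 0.295, 0.277, 0.625, 0.358 and 0.14 in that order, so none passed the threshold. For PSMB7 the nearest control and Nutlin-3 arrays were both at 10.67, and for PSMB6 they were at 10.59 and 10.558. The nearest control and 5FU arrays were at 9.132 and 9.138 for PSMA7 and at 9.996 and 10.018 for PSMC4. These gaps are small beside the median residual SD of a member, 0.19.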

How the results depend on the processing

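Under every processing setting tried other than the crossed pairing given at the end, and with each array left out, 0 of the tested proteasome genes were called in any comparison, and the lowest adjusted p under any of them was 0.0542 for Nutlin-3, 0.282 for 5FU and 0.0527 between the drugs. The medians of the proteasome genes ran from -0.32 to -0.09, from -0.02 to 0.19 and from -0.40 to -0.18 when 1 array was left out, where the lone array is assumed to vary like the other groups, and from -0.25 to -0.18, 0.09 to 0.12 and -0.33 to -0.28 under the other settings. Counts over all genes (217, 80 and 113) moved more: with upper-quartile probe sets they were 380, 151 and 234, with arrays centred on medians 127, 14 and 37, with medians of probe sets 39 for 5FU against control and 69 between the drugs, and with every probe set 69 between the drugs. With 1 array left out they ran from 5 to 149, 1 to 63 and 3 to 104. Of 1086 values of 26 single proteasome genes, 63 changed sign under an alternative, none of them called. The causes of these changes were not tested. The 26 genes were those of the fixed rule given above, many of them chosen for high or low differences. Other members were not covered.

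Same-numbered arrays deviated in opposite directions for control against either drug (correlation over all genes -0.565 for Nutlin-3 and -0.525 for 5FU) and together for the drugs (0.634, and 0.87 over the 44 proteasome genes), so the replicate number was not taken to pair them. With it as a replicate block, 2, 1 and 0 of all genes and 0 proteasome genes were called (lowest adjusted p 0.242, 0.696 and 0.267), with the same medians (-0.19, 0.09 and -0.28). A crossed pairing, chosen after seeing the data, swapped the numbers of the control arrays only, so same-numbered drug arrays stayed together. It called 5 (all lower), 0 and 14 (all lower) proteasome genes, and 1788, 1882 and 2821 of all genes.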

Other observations

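Probe sets annotated to a proteasome gene together with another gene were not used for any gene. The 13 that PSMD4 shares with its retrogene PIPSL had mean levels of 10.95 and 10.79 in control, 10.46 and 10.83 after Nutlin-3, and 10.87 and 10.98 after 5FU. The 8 above the level filter that PSMA6 shares with KIAA0391 had 11.51 and 11.41 in control, 11.17 and 11.50 after Nutlin-3, and 11.40 and 11.78 after 5FU. In both sets Nutlin-3 replicate 1 was the lowest array and 5FU replicate 2 the highest.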
